A study of Mus musculus with 4 samples.

Results

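The Rab GTPase genes were taken from a RefSeq table of the mouse assembly GRCm38.p6 (mm10) as the protein-coding genes named Rab with a number and at most a letter and further digits. This gave 59 of 21887 protein-coding genes on the chromosomes. Deposited H3K27ac peaks were read at these genes in mouse bone marrow cells (strain C57BL/6, CD45.2-positive). H3K27ac is an acetylation of histone H3 that marks active promoters and enhancers. The BN1 library is labelled cKit(+) BRD9-NUTM1, that is, cKit-positive cells carrying a leukaemia fusion of the chromatin remodelling subunit BRD9 with the testis protein NUTM1, and the control library is labelled cKit(+) with no fusion. No treatment is named for either. Each group has 1 ChIP library, made by fanChIP, a native form of chromatin immunoprecipitation. An input library is listed for each group, and both were not analysed here.

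Doubts about the labels bear on every direction below. Peaks in the BN1-labelled list carry the name prefix BM and those in the control-labelled list the prefix BRNU, and the protocol names BN1 cells for all samples, the control included. No peak of either list lay within 10 kb of Kit, which encodes the marker that named the cells, whereas Ptprc, which encodes CD45, had 2958 bp in the BN1-labelled list and 6634 bp in the control-labelled list. All 6 neutrophil markers examined had more peak length in the BN1-labelled list (3582 to 8067 bp, against 0 to 984 bp in the control-labelled list), with Ngp, Ltf, S100a9 and Cxcr2 at 0 in control. All 6 monocyte and macrophage markers had less in the BN1-labelled list (0 to 1676 bp, against 624 to 9481 bp in the control-labelled list), with Cx3cr1 and Adgre1 at 0 in BN1. Of 6 B cell markers, 5 were longer in the BN1-labelled list, and Pax5, Ebf1 and Cd79b were at 0 in the control-labelled list. The other lists were mixed, with 3 of 6 erythroid, 1 of 5 T cell, 1 of 6 mast cell and 2 of 6 megakaryocyte markers longer in BN1, and 2, 2, 1 and 4 of them longer in control. The part of these cell types in the Rab differences was not tested. In a bulk library, a larger share of cells with an acetylated region and a stronger signal per cell cannot be told apart.

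Rab proteins are small GTPases that mark the membranes of the cell. In the GTP-bound form a Rab recruits effectors that move, tether or fuse vesicles, exchange factors load it with GTP, and GTPase-activating proteins switch it off. In blood cells, Rabs serve the phagosome and lysosome of macrophages and the release of granules by neutrophils, mast cells and cytotoxic cells.

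The 250 bases before the annotated start of 6 Rab genes (RefSeq, GRCm38.p6, written 5′ to 3′ on the gene's strand) are given because a deposited peak covered part of them in 1 list only, or, for Rab8b, because its close relative Rab8a differed in the other direction. A BN1 peak alone reached the bases before Rab27a and Rab8a, and peaks of both lists reached those before Rab8b. A control peak alone reached those before Rab20, Rab31 and Rab34. The bases before Rab14, Rab3a and Rab6b were also reached by a control peak alone and are not printed. At Rab8a, control peaks lay on both sides of the stretch, and that of 1378 bp began 40 bp after the start. Capitals mark matches, on either strand, to 6 short motifs: an E-box, the core of a CRE, an ETS motif, the CCAAT box, an NRF1 motif and the TATA box. None of the 6 contains another.
Rab27a (chr9:73044560-73044809, plus strand): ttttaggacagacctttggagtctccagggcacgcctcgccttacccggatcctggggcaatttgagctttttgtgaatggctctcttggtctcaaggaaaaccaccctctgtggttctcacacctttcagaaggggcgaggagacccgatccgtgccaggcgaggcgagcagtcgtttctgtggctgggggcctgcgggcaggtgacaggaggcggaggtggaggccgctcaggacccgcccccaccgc
Rab8a (chr8:72160950-72161199, plus strand): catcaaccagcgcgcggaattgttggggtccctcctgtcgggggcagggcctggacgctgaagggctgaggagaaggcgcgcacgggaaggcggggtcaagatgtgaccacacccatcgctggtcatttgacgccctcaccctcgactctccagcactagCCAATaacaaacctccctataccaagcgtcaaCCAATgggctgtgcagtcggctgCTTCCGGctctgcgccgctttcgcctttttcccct
Rab8b (chr9:66919706-66919955, minus strand): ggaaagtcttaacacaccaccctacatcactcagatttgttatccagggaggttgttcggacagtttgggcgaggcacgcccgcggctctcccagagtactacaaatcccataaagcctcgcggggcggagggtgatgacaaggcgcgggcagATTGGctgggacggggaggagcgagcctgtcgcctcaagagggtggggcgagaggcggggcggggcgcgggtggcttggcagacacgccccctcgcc
Rab20 (chr8:11478641-11478890, minus strand): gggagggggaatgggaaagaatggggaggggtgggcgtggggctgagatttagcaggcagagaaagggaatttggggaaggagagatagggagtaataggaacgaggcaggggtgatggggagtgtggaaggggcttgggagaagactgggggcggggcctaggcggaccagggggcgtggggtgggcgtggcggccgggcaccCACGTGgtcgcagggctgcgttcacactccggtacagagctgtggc
Rab31 (chr17:65772753-65773002, minus strand): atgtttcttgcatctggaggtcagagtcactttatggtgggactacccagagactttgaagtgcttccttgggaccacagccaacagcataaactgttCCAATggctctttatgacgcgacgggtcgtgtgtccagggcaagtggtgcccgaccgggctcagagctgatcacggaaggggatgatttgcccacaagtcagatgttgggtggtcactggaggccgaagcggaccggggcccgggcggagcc
Rab34 (chr11:78188177-78188426, plus strand): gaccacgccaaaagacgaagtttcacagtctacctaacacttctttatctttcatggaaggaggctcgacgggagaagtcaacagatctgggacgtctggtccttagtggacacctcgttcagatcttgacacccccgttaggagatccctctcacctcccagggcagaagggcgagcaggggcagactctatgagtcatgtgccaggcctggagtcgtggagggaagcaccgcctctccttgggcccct
Among the printed stretches, those before Rab27a and Rab34 held none of the 6 motifs. In the others, the CCAAT box lay before Rab8a, Rab8b and Rab31, the ETS motif before Rab8a, and the E-box before Rab20. In the 250 bases before the start, the 48 Rab genes in the promoter table had a median GC content of 60.6% and a median of 16 CpG sites, beside 55.2% and 10 over 17492 genes. On either strand the CCAAT box was found at 22 of them (45.8%, against 36.5% of all promoters). The CRE core, searched as TGACGT, was found at 7 Rab genes (14.6%, against 7.53%). The E-box, searched as CACGTG, lay before 4 Rab genes (8.33%, against 6.65%). The ETS motif was searched as CCGGAAG and lay before 3 Rab genes (6.25%, against 9.15%). The NRF1 motif was searched as GCATGCG and lay before 2 Rab genes (4.17%, against 3.79%). The TATA box was searched as TATAAA and lay before 4 Rab genes (8.33%, against 12.4%). Of those 4 genes, 3 had no marked end in either list. A match describes the letters only.

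Most Rab genes carried an acetylated gene end in both libraries. A gene was given a marked end where a peak reached within 1000 bp of either annotated end. Of the 59 Rab genes, 38 had a marked end in both lists (64.4%, 95% exact interval 50.9 to 76.4), against 38.4% of all protein-coding genes. A marked end in the BN1-labelled list only was found at 3 genes (5.08%; 3.23% of all genes), and in the control-labelled list only at 6 (10.2%; 6.62% of all genes). The remaining 12 had none (20.3%; 51.8% of all genes). With the gene start alone, for the 48 Rab genes whose strand a promoter table gave, 33 had a start region in both lists, 1 in the BN1-labelled list only and 4 in the control-labelled list only (38.2%, 2.87% and 6.16% of 17492 genes). There is 1 library per group, so these counts have no replicate error, and the interval covers counting error only.

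**Figure D1:**
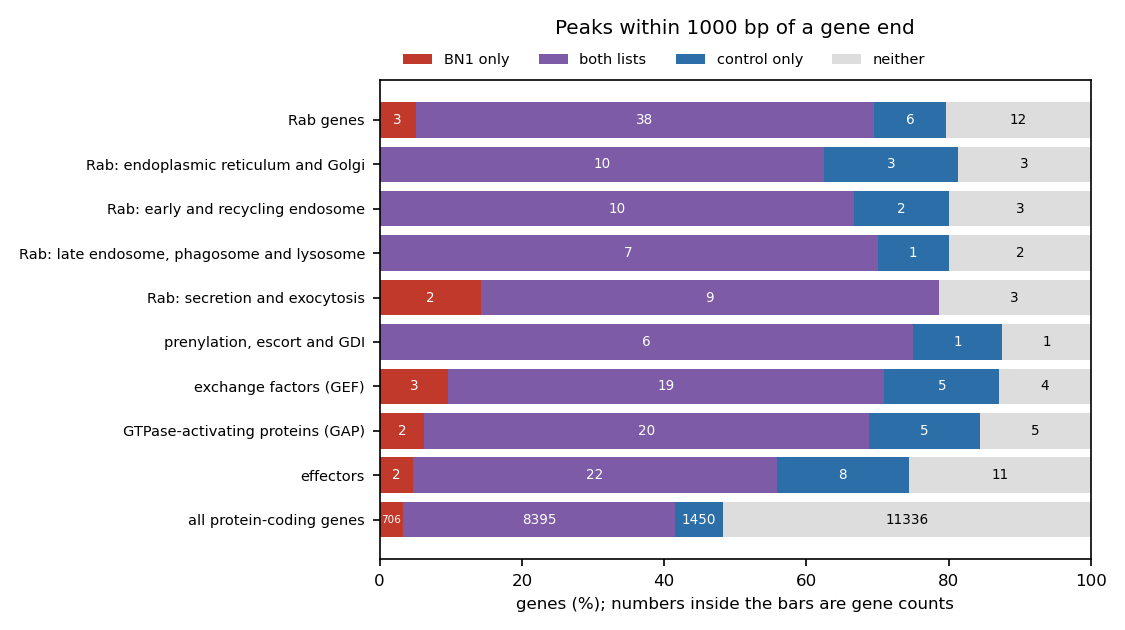
Share of genes (x axis, %) with a deposited peak within 1000 bp of a gene end in the BN1 list only, in both lists, in the control list only or in neither, for the Rab genes, the Rab genes by compartment, 4 lists of Rab regulators and effectors, and all protein-coding genes. Of the Rab genes, 38 of 59 were marked in both lists (64.4%, beside 38.4% of all genes). Of the genes placed in a compartment, the 2 marked in BN1 only lie in the secretion group of 14 (14.3%, beside 3.23% of all genes).

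Acetylated length, the bp covered by peaks from 10 kb before the lower to 10 kb after the upper end of a gene, was measured for all 59 genes. Summed over them it was 108671 bp in the BN1-labelled list and 184026 bp in the control-labelled list, a ratio of control to BN1 of 1.69. The whole lists covered 19.1 Mb and 31.0 Mb, a ratio of 1.62, so on a log2 scale a shift of 0.70 separates lengths in bp from lengths per Mb of covered list. In bp, 15 Rab genes were longer in the BN1-labelled list (25.4%; 18.2% of all genes), 36 in the control-labelled list (61.0%; 43.9% of all genes), and 8 had no peak in either (13.6%; 37.8% of all genes). BN1 length minus control length had a median of -789 bp over the 51 Rab genes with any region, and of -457 bp over the 13606 such genes of the genome. Scaled per Mb, these medians were 6.26 and 10.2 bp per Mb. The median fold enrichment of the peaks in Rab windows was 8.48 in BN1 and 7.34 in control, each within its own list.

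Lengths differed at least 2-fold, a region present in 1 list only included, at 5 Rab genes longer in the BN1-labelled list (8.47%; 6.55% of all genes) and at 20 longer in the control-labelled list (33.9%; 21.0% of all genes). Per Mb the split was 9 and 9 (15.3% each; 11.8% and 14.2% of all genes), all 5 of the BN1 genes and 9 of the 20 control genes being called on both scales. Among genes with any region, the shares of Rab genes in bp were 9.80% and 39.2%, near the 10.5% and 33.9% of all such genes. The 9 control genes were Rab8b, Rab20, Rab5c, Rab19, Rab7b, Rab40c, Rab17, Rab33a and Rab4a. A window held peaks of the BN1-labelled list only at 2 genes, Rab44 and Rab36 (3.81% of all genes), and of the control-labelled list only at 3, Rab17, Rab33a and Rab4a (8.15%).

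**Figure D2:**
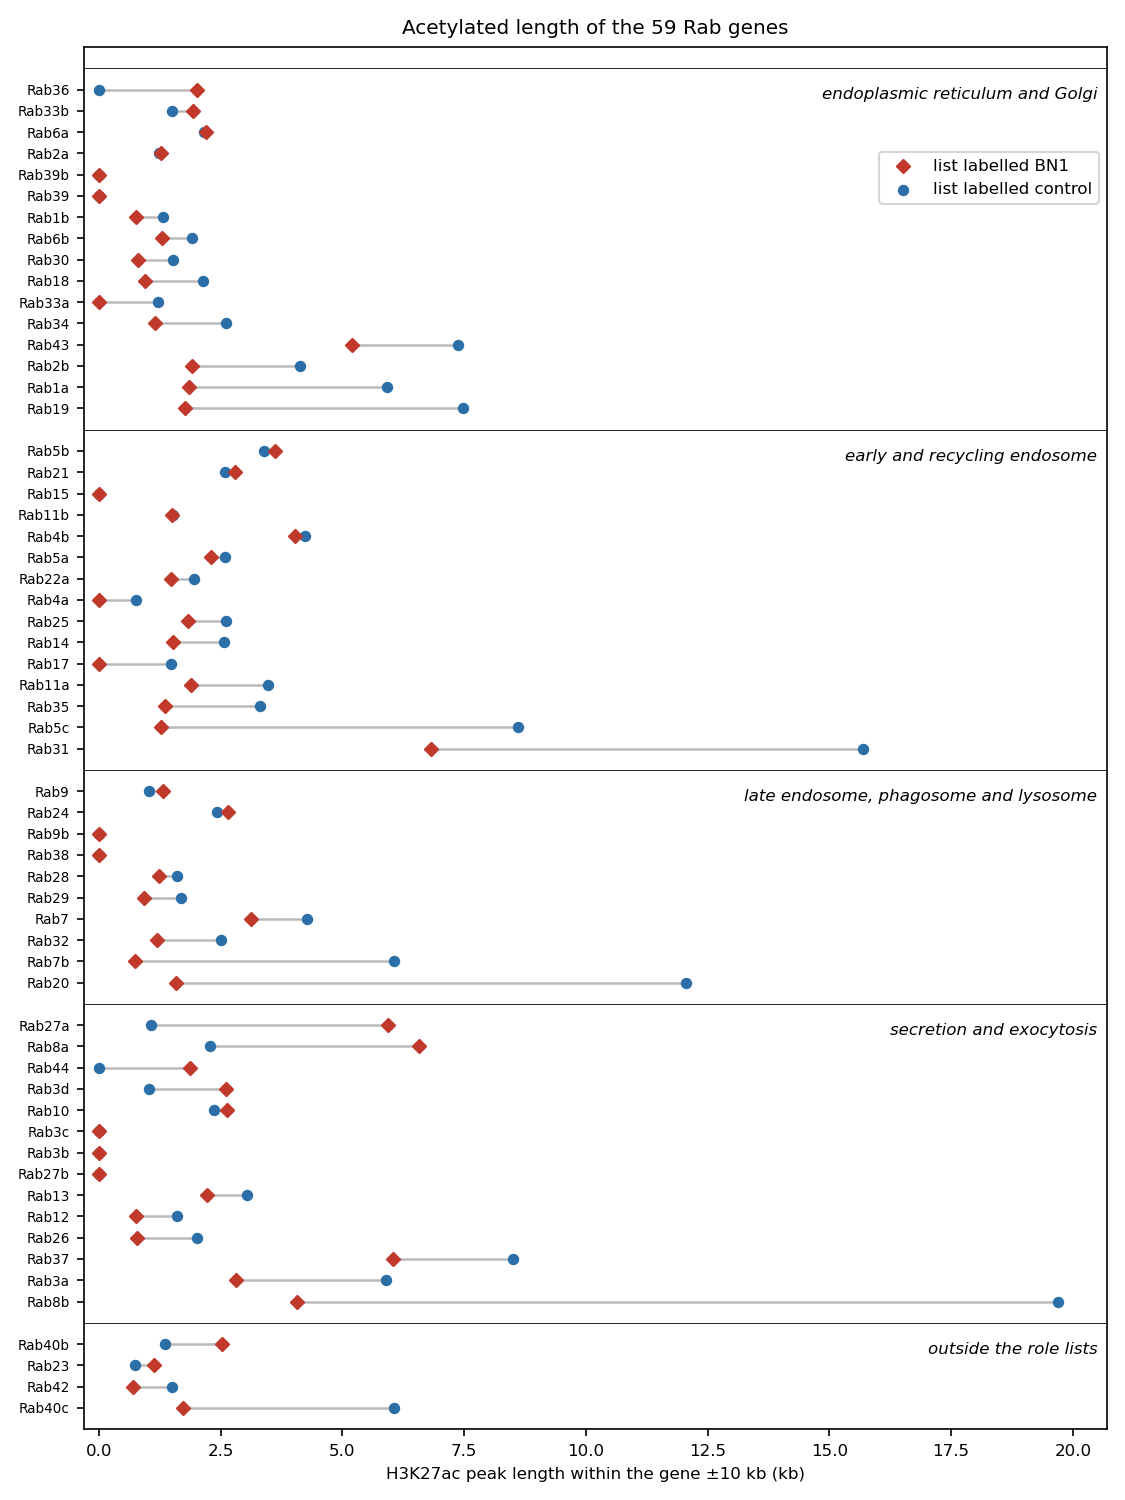
Peak length within the gene and 10 kb on each side (x axis, kb) for each of the 59 Rab genes (y axis), grouped by compartment, in the BN1-labelled list (diamonds) and the control-labelled list (circles, hidden where both are at the same value). The longest bars end in control values at Rab8b (19691 bp), Rab31 (15683 bp) and Rab20 (12053 bp), and the longest toward BN1 are at Rab27a (5939 bp) and Rab8a (6578 bp).

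Rabs of secretion and exocytosis included 4 of the 5 genes that were at least 2-fold longer in the BN1-labelled list, and 4 of the 20 that were longer in the control-labelled list. These are 28.6% of the group in each direction, beside 6.55% and 21.0% of all genes, and per Mb the counts were 4 in BN1 and 1 in control. Of the 11 genes of the group with any region, they are 36.4% in each direction, beside 10.5% and 33.9% of all such genes. Of the 14 genes in this group, 9 had a marked end in both lists (64.3%, beside 38.4% of all genes). In the BN1-labelled list only there were 2 (14.3%, beside 3.23%), and 3 (Rab3b, Rab3c and Rab27b) had no peak in either (21.4%, beside 37.8%). Rab27a (chr9:73044810-73097623), which carries lysosome-related and neutrophil granules to the plasma membrane and is mutated in Griscelli syndrome, had 5939 bp in the BN1-labelled list and 1073 bp in the control-labelled list. That control length was a single peak, from -5592 to -4520 bp relative to the start, at the ends of Pigb and Pigbos1, and the BN1 list had it too (867 bp). Beyond it the BN1 list had a peak of 851 bp on the Rab27a start (fold enrichment 5.84, the authors' value for the peak) and 4 peaks inside the gene, from 39903 to 45688 bp after the start, with fold enrichments of 4.58 to 6.85. None of these 5 peaks was shared. Rab27b, its close relative, had no peak within 10 kb in either list.

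Rab44 (chr17:29114128-29148980), a large Rab with a role in granule release in mouse mast cells, had 1874 bp in the BN1-labelled list and no peak in the control-labelled list. Its main peak, of 1408 bp at a gene end, had a fold enrichment of 12.9, higher than 75.5% of the BN1 list. With flanks of 50 kb the difference turned, to -5642 bp. Rab3d, a granule Rab of exocrine and mast cells, had 2603 bp in the BN1-labelled list and 1026 bp in the control-labelled list. Both lists had a peak just after its start (704 bp in BN1 and 613 bp in control), control had 413 bp more in the flank, and BN1 alone had 3 more toward the 3' end, from 7056 to 9798 bp after the start.

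Rab8a and Rab8b, a pair of close relatives that direct vesicles to the plasma membrane and to cilia, differed in opposite directions. Rab8a (chr8:72161200-72181366) had 6578 bp in the BN1-labelled list and 2287 bp in the control-labelled list. All of its 4 control peaks were shared. The largest difference lay at 1 site inside the gene, where the BN1 peak ran from 7181 to 9512 bp after the start (2332 bp, fold enrichment 14.7) and the control peak covered 242 bp (fold enrichment 4.39). A further 950 bp of the BN1 length lay at an end of Hsh2d, a neighbour. With flanks of 50 kb Rab8a no longer differed 2-fold.

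Rab8b (chr9:66843609-66919705) had 4064 bp in 7 peaks in the BN1-labelled list and 19691 bp in 15 peaks in the control-labelled list, the largest difference of any Rab gene (-15627 bp). The start peak was present in both lists, with fold enrichments of 21.5 in BN1 and 21.97 in control, and measured 1349 bp in BN1 and 5069 bp in control, where it ran 4883 bp into the gene. From 28582 to 42783 bp after the start the control list had 7 further peaks, among them peaks of 3556 and 3171 bp, and the BN1 list had none. In all, 13041 bp of the control length was in unshared peaks, against 408 bp of the BN1 length.

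Of the other secretory Rabs, Rab3a, a synaptic vesicle Rab, had 2823 bp in the BN1-labelled list and 5899 bp in the control-labelled list. Of that control length, 3460 bp lay at the ends of its neighbours only, and without flanks it no longer differed 2-fold. Rab12 and Rab26 were 2.09-fold and 2.57-fold longer in the control-labelled list, neither past 2-fold per Mb. Rab37, an exocytosis Rab of mast cells, had 6029 bp in the BN1-labelled list and 8510 bp in the control-labelled list, a difference that changed sign per Mb. Of these lengths, 2234 bp in BN1 and 1851 bp in control lay at an end of Cd300lf. The Rab37 end peaks, 2261 bp in BN1 and 2243 bp in control, also lay at an end of Slc9a3r1. Rab10, which moves glucose transporter vesicles, had 2625 bp in BN1 and 2358 bp in control, and Rab13, a Rab of tight junction traffic, had 2216 bp in BN1 and 3040 bp in control, of which the first difference kept its sign per Mb and the second did not.

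**Figure D3:**
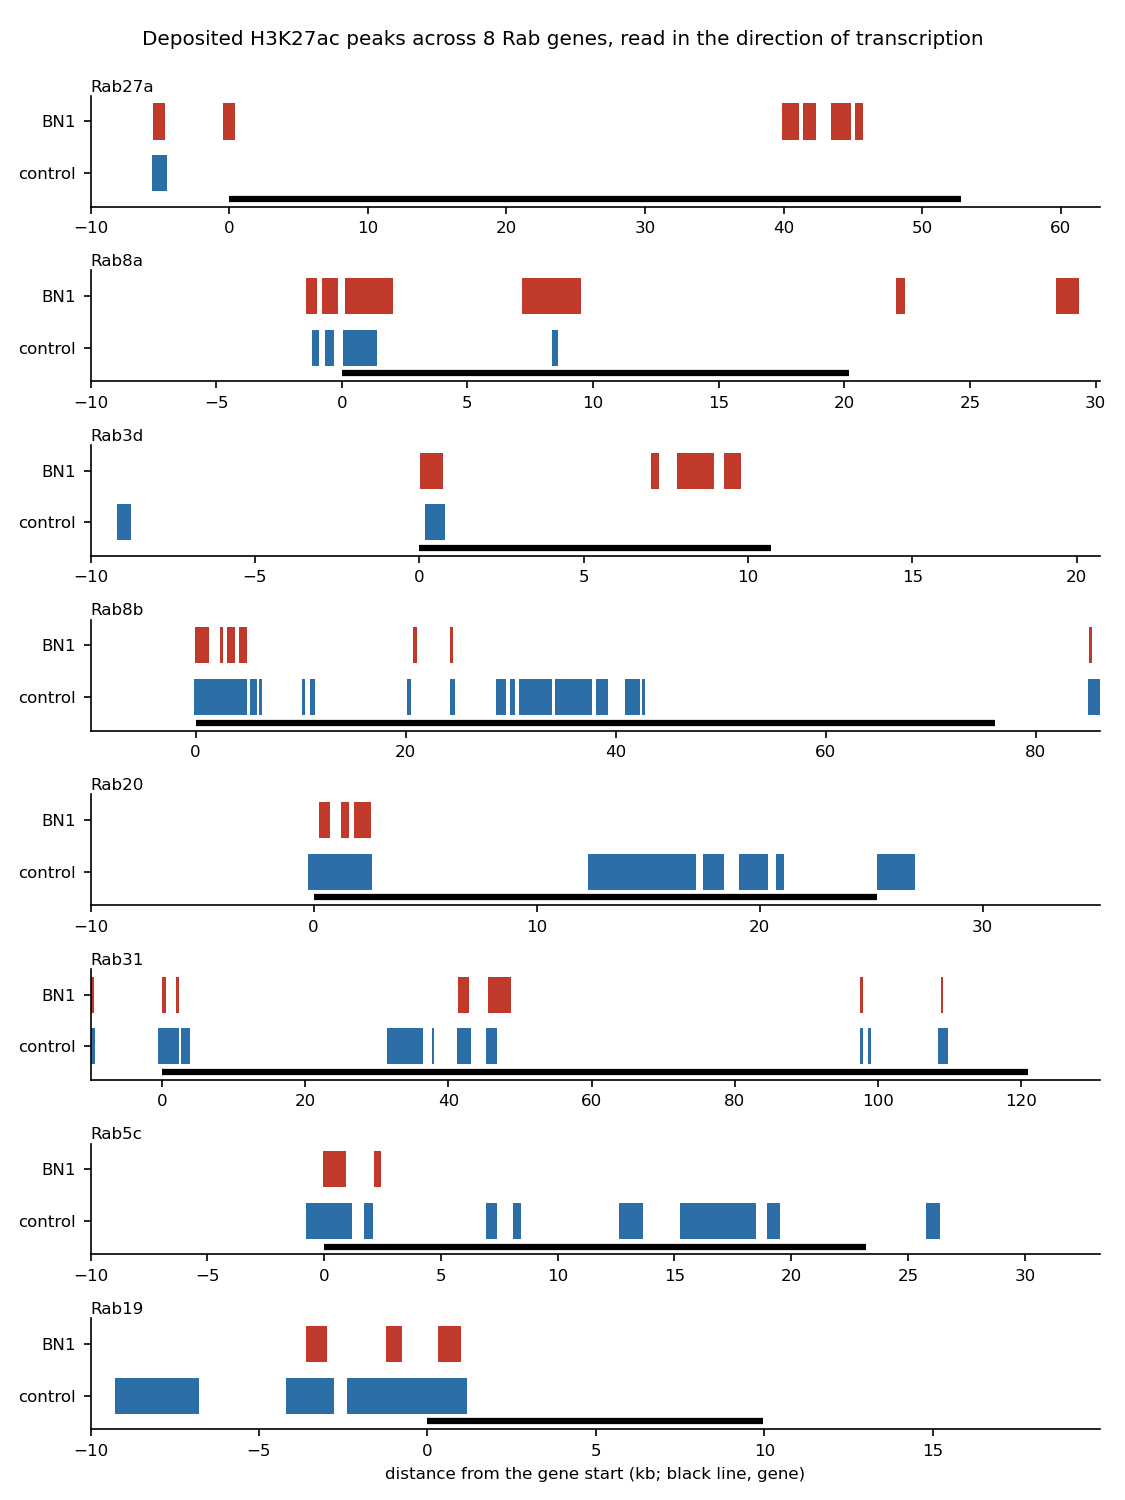
Deposited peaks (boxes) across 8 Rab genes and the 10 kb on each side, against distance from the gene start (x axis, kb, in the direction of transcription; the scale differs between genes), in the BN1-labelled list (upper row) and the control-labelled list (lower row); the black line is the gene. Rab27a, Rab8a and Rab3d show more peak length in BN1 inside the gene or at its end, and Rab8b, Rab20, Rab31, Rab5c and Rab19 show more in control.

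Rabs of the late endosome, phagosome and lysosome had 0 genes at least 2-fold longer in the BN1-labelled list and 3 of 10 in the control-labelled list, in bp (6.55% and 21.0% of all genes). Per Mb these were 1 and 2. Of the 8 genes of this group with any region, 37.5% were at least 2-fold longer in control, beside 33.9% of all such genes. Rab20 (chr8:11453390-11478640), which acts in maturation of macrophage phagosomes, had 1585 bp in the BN1-labelled list and 12053 bp in the control-labelled list, 7.60-fold more. In the BN1-labelled list its 3 peaks all lay within 2582 bp of the start. The control list had a start peak of 2870 bp that overlapped all of them, and 5 unshared peaks. The longest was 4868 bp wide, 12286 to 17153 bp after the start, with a fold enrichment of 28.1 (above 97.1% of its list), and the last, of 1680 bp, began just past the gene. Rab7b (chr1:131688681-131715443), a late endosomal Rab that limits Toll-like receptor signalling in macrophages, had 749 bp in the BN1-labelled list and 6055 bp in the control-labelled list, 8.08-fold more. Its marked end, 2795 bp wide and 10.8-fold enriched, was present in the control-labelled list only, and reached over the 749 bp peak that BN1 had inside the gene.

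Rab7, the general Rab of late endosomes, differed less. It had 3120 bp in the BN1-labelled list and 4267 bp in the control-labelled list, and the difference changed sign per Mb. Rab32, a Rab of lysosome-related organelles, had a single start peak in each list, 1202 bp wide in BN1 (fold enrichment 5.45) and 2508 bp wide in control (fold enrichment 25.6), and its relative Rab38 had no peak in either. Rab9, which returns receptors from late endosomes to the Golgi, had 1310 bp in BN1 and 1028 bp in control, a difference of 2-fold only when scaled per Mb. Rab24, Rab28 and Rab29 had a marked end in both lists, with 2647, 1242 and 922 bp in BN1, and 2420, 1603 and 1682 bp in control, and Rab9b had no peak.

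Among the 15 Rabs of early and recycling endosomes, 0 were at least 2-fold longer in the BN1-labelled list and 5 in the control-labelled list (33.3%, beside 21.0% of all genes), and per Mb 0 and 3. Of the 14 with any region, 0% and 35.7% differed so in bp, beside 10.5% and 33.9% of all such genes. Rab31, which works between the trans-Golgi network and endosomes, had 6824 bp in the BN1-labelled list and 15683 bp in the control-labelled list. All 7 of its BN1 peaks overlapped a control peak, whereas 6897 bp of the control length was unshared. The unshared part included a peak of 5036 bp from 31403 to 36438 bp after the start (fold enrichment 24.6). At a shared site further into the gene BN1 was the longer, with a peak of 3275 bp, from 45534 to 48808 bp after the start, against 1499 bp in control. Per Mb, Rab31 did not reach 2-fold.

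The 3 Rab5 genes, which encode the master regulators of early endosome fusion, differed from each other. Rab5c had 1273 bp in the BN1-labelled list and 8610 bp in the control-labelled list, 6.76-fold more, of which 6061 bp lay inside the gene in 6 peaks, all of them unshared. Among the 10000 peaks of each list with the highest -log10 q, Rab5c no longer differed 2-fold. Rab5a had a single start peak of 2304 bp in BN1 and of 2595 bp in control. Rab5b had 3613 bp in BN1 and 3382 bp in control, of which 2322 bp in BN1 and 2331 bp in control lay at the ends of neighbouring genes only. The recycling Rabs Rab11a and Rab11b each had a start peak in both lists, and Rab11a had 1263 bp of unshared control length besides. Rab4a had no peak in the BN1-labelled list and a single peak of 756 bp in the control-labelled list (fold enrichment 4.46), whose -log10 q of 7.26 was low, while its relative Rab4b had 4030 bp in BN1 and 4223 bp in control. Rab22a had 1 start peak per list, of 1470 bp in BN1 and 1960 bp in control. Rab14, which acts between endosomes and the Golgi, had 1 start peak of 1523 bp in BN1 and 3 peaks with 2577 bp in control. Rab35 was 2.44-fold longer in the control-labelled list.

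Rab21, an endocytic Rab of integrin traffic, counted as a gene with a marked end in control only. Its main peak was shared, with fold enrichments of 40.1 in BN1 and 22.5 in control, and began 1168 bp after the annotated start in BN1 and 664 bp after it in control. A second annotated start, whose preceding 250 bases are chr10:115315592-115315841, lay under this peak in both lists. Rab15 had no peak in either list. Rab17 had 1489 bp in the control flank only. Rab25 had flank peaks in both lists, 1821 bp in BN1 and 2612 bp in control.

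Of the 16 Rabs of the endoplasmic reticulum and Golgi, 10 had a marked end in both lists and 3 in control only. These are 62.5% and 18.8%, beside 38.4% and 6.62% of all genes. At least 2-fold longer were 1 gene in BN1 and 6 in control (6.25% and 37.5%, beside 6.55% and 21.0% of all genes), and per Mb 2 and 2. Of the 14 with any region, 7.14% and 42.9% differed so in bp, beside 10.5% and 33.9% of all such genes. Rab1a, which carries cargo from the endoplasmic reticulum to the Golgi, had start peaks with fold enrichments of 49.6 in BN1 and 33.4 in control, above 98.1% and 98.4% of their lists, and 3200 bp of unshared control length in its flank. Its relative Rab1b had 1 start peak per list, of 761 bp in BN1 and 1312 bp in control. Rab2a had 1277 bp in BN1 and 1241 bp in control, and Rab6a, a Rab of retrograde Golgi traffic, had 2198 bp in BN1 and 2150 bp in control. Rab18, a Rab of lipid droplets, had 942 bp in BN1 and 2134 bp in control, of which 1095 bp was a flank peak.

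With flanks of 10 kb, the largest difference in this group was at Rab19, with 1761 bp in the BN1-labelled list and 7475 bp in the control-labelled list. Of the control length, 2498 bp was an unshared peak at -9285 to -6788 bp relative to the start and 3560 bp a peak over the start, where BN1 had peaks of 460 and 687 bp. That peak of 3560 bp also lay within 1000 bp of an end of Slc37a3, a neighbour. A further 1417 bp in control and 614 bp in BN1 lay at an end of Slc37a3. Without flanks Rab19 had 687 bp in BN1 and 1167 bp in control and no longer differed 2-fold. Rab34, which acts in Golgi positioning and ciliogenesis, had a start peak of 900 bp in the control-labelled list only (fold enrichment 5.20). The rest of its length, 1154 bp in BN1 and 1712 bp in control, lay at the ends of neighbours, among them Rpl23a. Rab6b, the neuronal relative of Rab6a, had a start peak of 947 bp in control only, and a shared peak upstream of the start that measured 1303 bp in BN1 and 573 bp in control. Rab33a had no peak in BN1 and 3 weak ones in control (1211 bp in all, fold enrichments 3.37 to 5.41). Rab36 had 2017 bp in BN1 and none in control, in a peak that lay outside the gene and at an end of Bcr. Rab43 had 5202 bp in BN1 and 7366 bp in control, a difference that changed sign per Mb. Its window reached into Gp9, a platelet gene, but all of its peaks in both lists lay at its own ends or inside it. Rab39 and Rab39b had no peak, and Rab2b, Rab30 and Rab33b had a marked end in both lists. Their lengths were 1909, 810 and 1933 bp in BN1, and 4121, 1520 and 1502 bp in control.

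Outside these groups, Rab40b and Rab40c encode Rabs with a SOCS box, which binds a ubiquitin ligase. Rab40b had a marked end in the BN1-labelled list only, but the peak (2528 bp, fold enrichment 66.2) lay at the 3' end of Rab40b and at an end of Wdr45b. The same site in control was a shared peak of 1365 bp (fold enrichment 34.2) that stopped outside the 1000 bp. Rab40c had 1725 bp in BN1 and 6068 bp in control, with 3348 bp of the control length unshared. Rab23 and Rab42 had 1130 and 704 bp in BN1, and 737 and 1493 bp in control.

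Marked ends were ranked within each list by the authors' fold enrichment. The highest in the BN1-labelled list, after Rab40b, were Rab14 (61.5), Rab13 (54.2), Rab7 (50.6) and Rab1a (49.6). The highest in the control-labelled list were Rab30 (36.5), Rab1a (33.4), Rab13 (33.2), Rab5a (29.8) and Rab11b (26.1). In both lists the Rab13 end peak also lay within 1000 bp of an end of Rps27 and of Nup210l, so its value is not of Rab13 alone. Fold enrichments rank peaks inside a list. Where those of both lists are given for the same site, each is its own list's value, and the difference between them is not a measured change.

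Peaks in Rab windows numbered 106 in the BN1-labelled list and 153 in the control-labelled list. At gene ends there were 50 and 51, inside the genes 30 and 58, and in the flanks 26 and 44. Over all protein-coding genes, there were 10304 peaks in BN1 and 11762 in control at gene ends, 6318 and 11988 inside genes and 7521 and 10268 in flanks, a peak counting once for each gene it lies at. The length at gene ends was 62170 bp in BN1 and 85858 bp in control, inside genes 25827 and 60751 bp, and in the flanks 20674 and 37417 bp. The share of length at gene ends was thus 57.2% in BN1 and 46.7% in control, beside 52.0% and 44.9% for the windows of all protein-coding genes.

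Sharing differed by position. Of the Rab peaks, 76.4% in the BN1-labelled list (81 of 106, exact interval 67.2 to 84.1) and 49.7% in the control-labelled list (76 of 153, 41.5 to 57.9) overlapped a peak of the other list by at least 1 bp. Of all peaks in gene windows, each counted once, 67.3% and 44.9% did so. The all-gene shares by position below count a peak once for each gene it lies at. The total shares and the shares by position are thus not like measures, and the totals do not set Rab genes apart from the genome. At gene ends 88.0% of the BN1 peaks and 88.2% of the control peaks were shared, beside 89.0% and 79.6% over all genes. Inside the genes these shares were 56.7% (17 of 30) and 15.5% (9 of 58), beside 46.5% and 21.7% over all genes. Peaks of neighbouring genes fall in the flanks, and 20 of 26 flank peaks in BN1 and 22 of 44 in control were shared (76.9% and 50%, beside 70.0% and 50.4% over all genes).

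**Figure D4:**
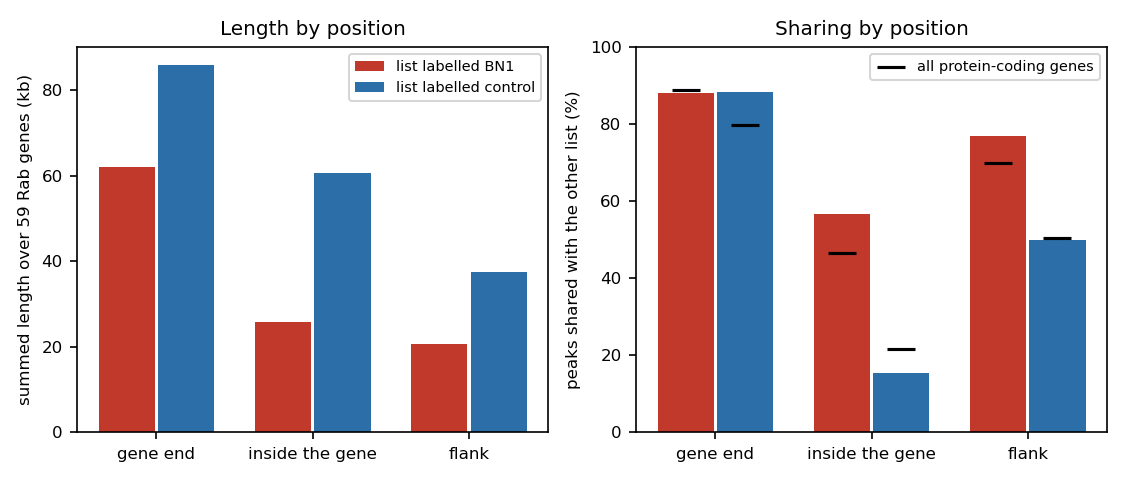
Left, summed peak length over the 59 Rab genes (y axis, kb) at gene ends, inside genes and in the 10 kb flanks, in the BN1-labelled list and the control-labelled list. Right, the share of these peaks that overlap the other list (y axis, %), with black ticks for all protein-coding genes: end peaks are 88.0% and 88.2% shared, and control peaks inside Rab genes 15.5%.

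End peaks that both lists held also differed in width. At the 38 Rab genes with a marked end in both, the summed width of the end peaks had a median of 1316 bp in BN1 and 1875.5 bp in control. It was wider in BN1 at 10 genes (26.3%; 32.6% of the 8395 such genes) and in control at 28 (73.7%; 67.3%). A width at least 2-fold larger was found in BN1 at 1 gene and in control at 7 (2.63% and 18.4%; 3.90% and 15.4% of all such genes). The Rab shares lay near those of the genome.

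The 114 genes that load, switch off or act with Rabs were read in the same way. A marked end was present in both lists at 67 (58.8%), in the BN1-labelled list only at 7 (6.14%) and in the control-labelled list only at 19 (16.7%), set against the 38.4%, 3.23% and 6.62% of all genes given above. Lengths were at least 2-fold longer in BN1 at 14 (12.3%) and in control at 38 (33.3%), where the genome had 6.55% and 21.0%. Per Mb the counts were 24 and 26 (21.1% and 22.8%; 11.8% and 14.2% of all genes). Among genes with any region, the shares in bp were 13.2% and 35.8%, near the 10.5% and 33.9% of all such genes.

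Of 31 exchange factors, 3 had a marked end in the BN1-labelled list only and 5 in the control-labelled list only. These are 9.68% and 16.1%, beside 3.23% and 6.62% of all genes. At least 2-fold longer were 7 in BN1 and 8 in control (22.6% and 25.8%, beside 6.55% and 21.0% of all genes). Per Mb these were 9 and 6 (29.0% and 19.4%, beside 11.8% and 14.2%). All 31 had a region, and of all such genes 10.5% and 33.9% differed so in bp. The 3 marked in BN1 only were Dennd5b (1190 bp), Dennd2d (1583 bp) and Rab3ip (1696 bp), all with no peak in control. They were named after their values were seen. Among the 5 marked in control only were Rin2, a Rab5 exchange factor (1293 bp in BN1 and 15031 bp in control), Dennd6b (945 bp in BN1 and 10783 bp in control), Dennd2a (0 bp in BN1 and 7525 bp in control) and Sbf2 (0 bp in BN1 and 5751 bp in control). Rin3, also named after its values were seen, had a marked end in both lists. It differed the other way, with 12945 bp in BN1 and 2891 bp in control. Of 32 GTPase-activating proteins, 2 had a marked end in BN1 only and 5 in control only (6.25% and 15.6%). At least 2-fold longer were 4 in BN1 and 11 in control (12.5% and 34.4%, beside 6.55% and 21.0% of all genes). Per Mb these were 6 and 5 (18.8% and 15.6%, beside 11.8% and 14.2%). Of the 31 with any region, 12.9% and 35.5% differed so in bp, beside 10.5% and 33.9% of all such genes. Tbc1d8 had its marked end in BN1 only (8783 bp in BN1 and 1985 bp in control). Tbc1d1, which acts on glucose transporter vesicles (3109 bp in BN1 and 8169 bp in control), Tbc1d24 (5428 bp in BN1 and 8603 bp in control) and Tbc1d4 (0 bp in BN1 and 2843 bp in control) had theirs in control only. Tbc1d2b, named after its values were seen, was marked in both lists and had 16044 bp in BN1 and 3076 bp in control.

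Of 43 effectors, 2 had a marked end in the BN1-labelled list only and 8 in the control-labelled list only. These are 4.65% and 18.6%, beside 3.23% and 6.62% of all genes. At least 2-fold longer were 3 in BN1 and 18 in control (6.98% and 41.9%, beside 6.55% and 21.0% of all genes). Per Mb these were 6 and 15 (14.0% and 34.9%, beside 11.8% and 14.2%). Of the 36 effectors with any region, 8.33% and 50% differed so in bp, beside 10.5% and 33.9% of all such genes. Among the 8 marked in control only, Rab11fip5, a Rab11 effector of recycling endosomes, had 302 bp in BN1 and 20662 bp in control. Appl2, a Rab5 effector, had 0 bp in BN1 and 6169 bp in control, Micall2 had 970 bp in BN1 and 6642 bp in control, and Rilp, which links Rab7 to dynein, had 0 bp in BN1 and 1828 bp in control. Rph3al and Hook1 had a marked end in BN1 only, with 1303 and 323 bp in BN1 and no peak in control. Of the 8 genes for prenylation, escort and GDP dissociation inhibition, 6 had a marked end in both lists (75%, beside 38.4% of all genes). In control only there was 1 (12.5%, beside 6.62%), and in BN1 only 0 (beside 3.23%). At least 2-fold longer were 0 in BN1 and 1 in control (12.5%), beside 6.55% and 21.0% of all genes. Per Mb these were 3 and 0 (37.5% and 0%, beside 11.8% and 14.2%). All 8 had a region, and of all such genes 10.5% and 33.9% differed so in bp.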

How the data were processed

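Each ChIP library came as 1 headerless narrowPeak list. Bowtie2 2.5.4, Picard 3.2.0, deepTools 3.5.1, MACS3 3.0.1 and mm10 (GRCm38) are listed, without their roles, per the submitters' processing notes. Not given in the sources used here were the input's use, pooling and the calling threshold. The authors' deposited values per peak are a fold enrichment (linear ratio), −log10 p-value and −log10 q-value, and a score. The score was within 1 unit of 10 times the −log10 q and was not used. The lowest deposited −log10 q was 1.30 (BN1) and 1.32 (control).

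Groups follow the sample titles. Gene ends came from RefSeq GRCm38.p6 and strand from a promoter table that held 48 of the 59 Rab genes. Peaks did not overlap within a list. Depth is unknown, since the lists hold no read counts, and limits which weak regions could be called. There was 1 library per group, so nothing was tested, and exact (Clopper-Pearson) 95% intervals cover counting error only. On simulated regions at 1204 genes of chromosome 1, the measures equalled a count base by base at all 1204.

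The members and lists were chosen with earlier results of these data known. Genes were assigned to compartments by textbook role. By rule the text names Rab genes with a marked end in 1 list only, the 10 largest differences per direction, the 5 highest end fold enrichments per list, a fixed set, and up to 4 regulators per list whose marked ends differed; the other Rab genes are named to account for every member. Of 214 listed genes 212 were in the table, and a few of these are left out of the text. Python 3.11.15, numpy 2.4.6, pandas 2.3.3, scipy 1.17.1 and matplotlib 3.10.9 were used.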

Additional observations from a re-analysis of the deposited data

How the results depend on the processing

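There was 1 library per group, and no paired analysis was possible because the groups share a single replicate number and no result comes from a test. Values in each pair below are BN1, then control. Scaled per Mb, the counts of Rab genes at least 2-fold longer were 9 and 9, the median difference was 6.26, and the Rab regulators and effectors gave 24 genes in BN1 and a median of 5.33. At 4-fold the Rab counts were 3 and 8 and those of the regulators and effectors 9 and 21. Matching all-gene counts at 4-fold are not given, so these counts are not set against the genome. Taking the top 10000 peaks per list, the Rab counts were 8 and 11, with 3 Rab genes having a marked end in control only, and of the regulators and effectors 17 and 11 had a marked end in 1 list only and 24 were at least 2-fold longer in control. Of all 21887 genes, 2271 and 2742 were then at least 2-fold longer, and 1651 and 1006 had a marked end in 1 list only. With flanks of 50 kb, 3 Rab genes were at least 2-fold longer in BN1, 2 of the original 5 and Rab40b, beside 1463 of all 21887 genes. A 2500 bp end window left 3 in control only, the gene start alone left 1 in BN1 only, and with a −log10 q minimum of 10 regulators and effectors with a marked end in BN1 only numbered 14. The all-gene counts for these 3 settings were 1527 of 21887, 502 of 17492 and 909 of 21887.

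The median Rab difference in bp was -617 with a −log10 q minimum of 5, -550 with 10, -578 with lists of equal length, -342 with the top 10000 peaks, -295 without flanks, -1948 with 50 kb flanks and -790 among genes of at least 1000 bp. For the regulators and effectors (-629.5 bp as reported) these were -491, -403, -440.5, -189, -302, -1480.5 and -680. Over all protein-coding genes with any region (-457 bp as reported) they were -424, -393, -307, -175, -215, -938 and -645.

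Shared Rab peaks of the control list were 63.7% with a −log10 q minimum of 10, 61.7% with lists of equal length, 73.8% with the top 10000 peaks and 39.2% where 50% of the peak had to overlap, and 66.0% of BN1 peaks had a summit within 500 bp of one in the other list. The share at a gene end was 46.2% (control) with a −log10 q minimum of 10, 43.9% (control) with lists of equal length, 63.1% and 60.0% with the top 10000 peaks, 57.7% and 42.0% without flanks, and 59.4% (BN1) with a 2500 bp end window. All-gene values of sharing and position at these settings are not given, so these shares are not set against the genome. Rab20, Rab7b and Rab8b stayed past 2-fold in the same direction under the alternatives for peak threshold, list length, flank, scale and 4-fold. Rab27a did so too, but among the top 10000 peaks it kept only the 867 bp flank peak at Pigb and Pigbos1, which control also has in its full list. Rab44 alone of the 25 Rab genes that differed 2-fold turned (-5642 bp with 50 kb flanks). The cause of these changes was not tested.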
